A study of Mus musculus with 6 samples.

Results

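The RNA of 10 circadian clock genes was followed in 4T1 cells, a mouse mammary carcinoma line, after treatment with P3FI-90, an inhibitor of the histone demethylase KDM3B. They are Per1, Per2, Per3, Cry1, Cry2, Nr1d1, Nr1d2, Dbp, Clock and Npas2, that is 10 of the 22116 genes with a name or gene identifier in the table of read counts. The comparison was between 3 libraries of cells given DMSO, the vehicle, and 3 libraries of cells given 10 µM P3FI-90, both for 24 h and both without any genetic change named in the labels. The labels do not say whether the 3 libraries of a group came from separate cultures, so the spread between them may be technical, and 4T1 is 1 established line. The cells were harvested at 1 time point, and neither a time of day nor a synchronisation of the cells is given in the sources used here, so neither the phase nor the amplitude of a rhythm was measured. The 10 genes were chosen by symbol with the differences between these same libraries already known. Their differences are therefore given as a description, without p-values.

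The mammalian clock is a feedback loop of transcription. CLOCK, or its relative NPAS2, pairs with BMAL1 and activates genes through E-box motifs, among them the Per and Cry genes, whose proteins return to the nucleus and repress that activation. The same E-boxes drive Nr1d1 and Nr1d2, which encode the nuclear receptors REV-ERBα and REV-ERBβ, repressors of Bmal1, and Dbp, an activator that binds D-box motifs. Most cultured cells carry this loop, and it is reset by serum, glucocorticoids and cAMP signaling.

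Each library held between 31327094 and 37395732 counts on genes with a name or identifier, and 12288 genes had enough counts to be tested. The chi-square per gene was 5.44 to 8.43 between libraries of the same group, above counting noise, and 351 to 394 between groups. All 7 markers of mammary epithelial cells were counted in every library, but their summed level was 4263 to 4488 CPM (counts in proportion to the library's total, scaled by its TMM factor) in DMSO and 1769 to 1853 CPM after P3FI-90. The 4 leukocyte markers summed to 0 to 0.837 CPM in DMSO and 0.256 to 0.801 CPM after P3FI-90, with Adgre1 at 0 in every library. The 2 endothelial markers summed to 0 to 0.378 and 0.534 to 0.754 CPM. The 3 fibroblast markers summed to 38.1 to 40.1 CPM in DMSO and 26.0 to 29.1 CPM after P3FI-90, nearly all of it Pdgfra. The part of these shifts in the results on clock genes was not tested.

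The sequences before the start sites of the members show which of the clock's own motifs lie close to these genes. RefSeq promoters on GRCm38.p6, 250 bases before to 50 bases after each start site, were matched by symbol for 9 of the 10 genes, all but Per2. The submitters' processing notes name another build, GRCm39, so these coordinates are not those of the counts. Motifs were searched on both strands, so that AACGTG and TGACCT below are the E'-box and the receptor motif read on the other strand, and none of the matches overlapped another. The E-box, CACGTG, was found for 2 of the 9 genes, Per1 and Cry1, against 8.09% of all 27025 genes with a promoter. The E'-box, CACGTT, was found for 3 genes, Cry1, Cry2 and Nr1d1, against 5.44%. The D-box, TTATGTAA or TTACGTAA, was found for Per3 alone, against 1.23% of all genes. The nuclear receptor motif AGGTCA, which REV-ERB and ROR proteins share with many other receptors, was found for 3 genes, against 18.1%. These were Nr1d2 and, at 1 of the start sites each, Per1 and Clock. The cAMP response element TGACGTCA was found for none of the 9, against 2.03% of all genes.

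The 250 bases before the start site are printed for 5 genes that hold these motifs, 5′ to 3′ on the gene's strand, with each motif match in capitals. Per1 shows its E-box at position -166 from the start site and the receptor motif at -137, and its other start site held none of the motifs. Per3 shows its D-boxes at -205 and -158, and Cry1 an E'-box at -79 followed by an E-box at -60. In Nr1d1 an E'-box lies at -28, and in Nr1d2 the receptor motif lies at -77.
Per1, chr11:69098699-69098948, plus strand: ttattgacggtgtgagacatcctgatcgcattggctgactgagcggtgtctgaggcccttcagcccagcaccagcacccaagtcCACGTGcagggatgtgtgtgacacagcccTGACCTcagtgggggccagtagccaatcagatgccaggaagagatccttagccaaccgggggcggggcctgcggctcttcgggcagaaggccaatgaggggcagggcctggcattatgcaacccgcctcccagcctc
Per3, chr4:151044666-151044915, minus strand: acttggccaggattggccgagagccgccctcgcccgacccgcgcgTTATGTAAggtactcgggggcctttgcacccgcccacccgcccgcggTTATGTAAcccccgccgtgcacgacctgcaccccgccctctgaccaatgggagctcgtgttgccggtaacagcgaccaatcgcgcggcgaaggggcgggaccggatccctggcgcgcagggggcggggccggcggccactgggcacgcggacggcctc
Cry1, chr10:85185055-85185304, minus strand: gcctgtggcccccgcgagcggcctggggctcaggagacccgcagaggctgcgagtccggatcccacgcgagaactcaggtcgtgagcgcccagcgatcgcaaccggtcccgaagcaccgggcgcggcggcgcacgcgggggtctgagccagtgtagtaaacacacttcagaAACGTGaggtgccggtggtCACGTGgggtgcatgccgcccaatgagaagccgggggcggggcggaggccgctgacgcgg
Nr1d1, chr11:98775378-98775627, minus strand: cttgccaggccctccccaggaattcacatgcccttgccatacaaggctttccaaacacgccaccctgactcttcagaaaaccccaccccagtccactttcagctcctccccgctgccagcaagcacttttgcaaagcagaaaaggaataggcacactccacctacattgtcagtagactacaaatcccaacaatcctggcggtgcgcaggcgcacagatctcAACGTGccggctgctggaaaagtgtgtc
Nr1d2, chr14:18239107-18239356, minus strand: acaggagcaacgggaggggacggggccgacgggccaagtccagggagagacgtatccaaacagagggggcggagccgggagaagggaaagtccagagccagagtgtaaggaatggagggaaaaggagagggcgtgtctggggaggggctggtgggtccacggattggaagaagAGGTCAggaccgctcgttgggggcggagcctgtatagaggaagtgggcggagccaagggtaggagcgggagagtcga
A match of letters is not a measured binding site, and sites outside these windows were not searched.

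Counts were sufficient for a test in 9 of the 10 clock genes, and these 9 were all higher after P3FI-90. Each was called, that is, had an adjusted p under 0.05 over all 12288 genes in edgeR's quasi-likelihood test. This has to be set beside the background, since 79.3% of all genes tested were called, 39.9% higher and 39.4% lower. The median log2 fold change of the 9 was 1.30, against 0.013 over all genes tested. For 7 of them the log2 fold change was over 1. A call together with a log2 fold change over 1 was seen for 12.7% of all genes tested. In all 9 every P3FI-90 library lay above every DMSO library, which held for 41.0% of all genes tested. Since the genes were chosen with this comparison known, nothing is read from these shares. Scaling by total counts alone, in place of TMM, raised the log2 fold changes of all genes by a median of 0.21, gave 6179 higher and 3641 lower genes in place of 4908 and 4841, and gave a median of 1.52 for the clock genes. These are bulk RNA libraries, in which more cells that express a gene and more RNA of it per cell cannot be told apart.

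**Figure D1:**
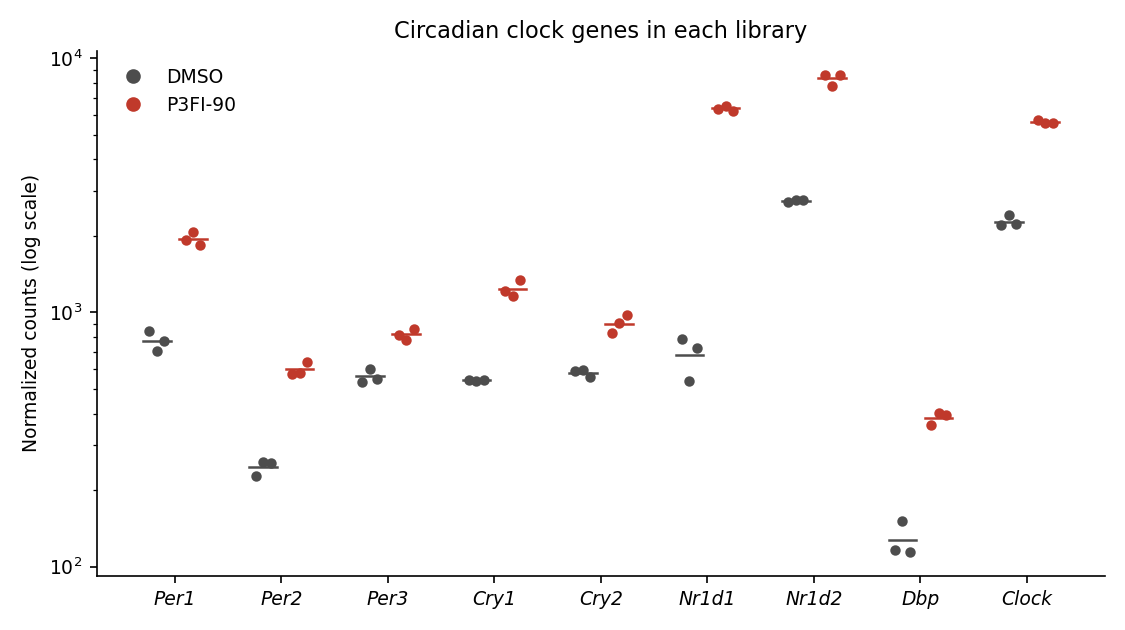
Normalized counts (vertical axis, log scale) of the 9 clock genes that passed the filter, in each of the 3 DMSO and 3 P3FI-90 libraries, with a bar at each group's mean. In all 9 genes the P3FI-90 points lie above the DMSO points, with the widest gap in Nr1d1 and the narrowest in Per3; Npas2, at 0 in 5 libraries, is not drawn.

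**Figure D2:**
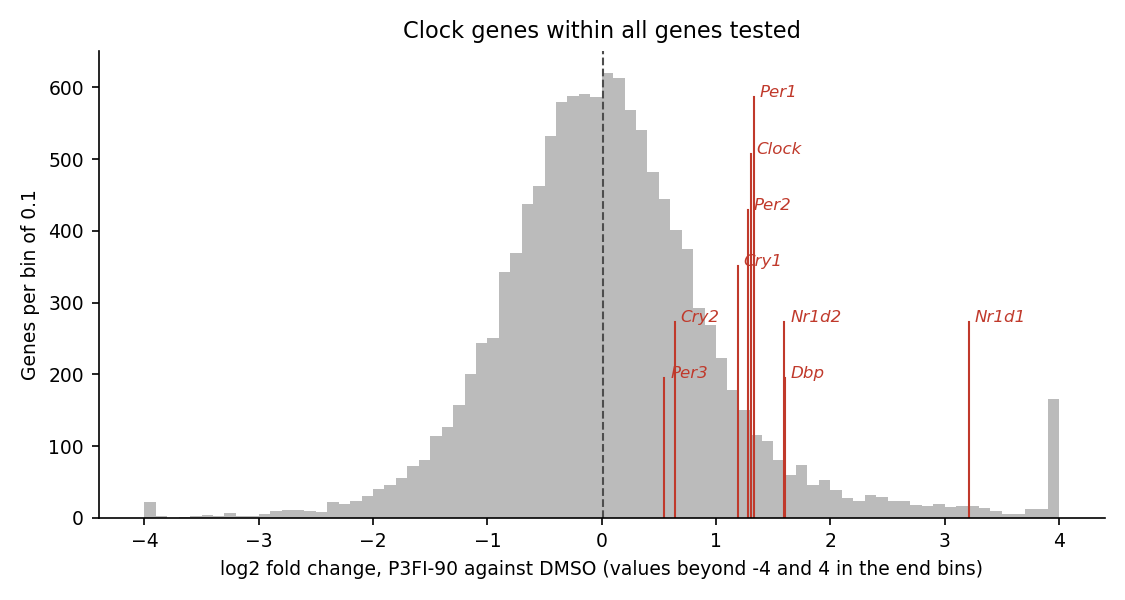
Number of genes (vertical axis) in each bin of log2 fold change (horizontal axis) over the 12288 genes tested, with the 9 clock genes marked by red lines whose height has no meaning and the median of all genes, 0.013, by a dashed line. The clock genes run from 0.55 for Per3 to 3.21 for Nr1d1.

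Among the REV-ERB receptors, Nr1d1 (ENSMUSG00000020889) differed most of the 9 genes. It had 786, 536 and 723 normalized counts (counts brought to a common library size) in DMSO and 6313, 6509 and 6222 after P3FI-90. The groups lay far apart, and the second DMSO library was the lowest of the 6. This is a 9.27-fold difference (log2 fold change 3.21, SE 0.093), and 98.0% of all genes tested had a smaller log2 fold change. Nr1d2 (ENSMUSG00000021775) had 2708, 2766 and 2774 normalized counts in DMSO and 8585, 7764 and 8623 after P3FI-90. The DMSO libraries were close to each other, with a coefficient of variation (CV) of 1.31%, and the second P3FI-90 library was the lowest of its group. The difference was 3.03-fold (log2 fold change 1.60, SE 0.044).

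Some reads of Nr1d1 may belong to a neighbour. In the GENCODE M21 annotation 263 of its 3077 exon bases, 8.55%, are also exon bases of Thra, the thyroid hormone receptor alpha gene, on the opposite strand, and the strandedness of the counts is not given in the sources used here. Thra had 1630.3, 1486 and 1542 normalized counts in DMSO and 2167, 2248 and 2171 after P3FI-90. It rose by 1.41-fold (adjusted p = 6.14e-07, edgeR), with a mean that went from 1553 to 2195 while that of Nr1d1 went from 682 to 6348. Reads of Nr1d1 in the shared bases may likewise have been counted for Thra, and their part in the rise of Thra was not tested. Of the 50-base windows of Nr1d2 transcripts, 5.13% also occur in AC170187.1, another annotated gene. The part of such shared sequence in the counts of Nr1d2 was not tested.

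The Per genes encode the PERIOD proteins, which carry the CRYPTOCHROMES into the repressing complex. Per1 (ENSMUSG00000020893) had 846, 702 and 769 normalized counts in DMSO and 1924, 2065 and 1843 after P3FI-90. The lowest P3FI-90 library lay well above the highest DMSO library. The difference was 2.51-fold (log2 fold change 1.33, SE 0.072). Per2 (ENSMUSG00000055866), with 227, 258 and 255 normalized counts in DMSO and 575, 576 and 639.7 after P3FI-90, is the member whose loss most disturbs the rhythm in mice. Its difference, 2.42-fold (log2 fold change 1.28, SE 0.10), was close in size to that of Per1. Per3 (ENSMUSG00000028957), the member of the family that the loop can best do without, had 531, 601 and 549 normalized counts in DMSO and 816, 779.6 and 863 after P3FI-90. Its difference was the smallest of the 9 genes, 1.46-fold (log2 fold change 0.55, SE 0.080), yet the groups did not overlap.

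The Cry genes encode the CRYPTOCHROMES, the main repressors of CLOCK and BMAL1. Cry1 (ENSMUSG00000020038) had 542, 539.6 and 542 normalized counts in DMSO, a CV of 0.283%, and 1211, 1156 and 1335 after P3FI-90, a CV of 7.43%. The CV was thus smaller in DMSO, but it rests on 3 libraries per group and this difference in spread was not tested. The difference was 2.28-fold (log2 fold change 1.19, SE 0.073). Cry2 (ENSMUSG00000068742) had 589, 595 and 556 normalized counts in DMSO and 826, 908 and 979 after P3FI-90. Its groups did not overlap, and the difference was 1.56-fold (log2 fold change 0.64, SE 0.081). Of its exon bases 4.67% overlap D930015M05Rik on the opposite strand, which the table does not list.

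Dbp (ENSMUSG00000059824), the D-box activator and a direct E-box target, had 116, 151 and 114 normalized counts in DMSO and 359, 402 and 394 after P3FI-90. The second DMSO library was the highest of its group. The difference was 3.04-fold (log2 fold change 1.60, SE 0.14), with the largest SE of the 9 genes and the fewest reads behind it. Its exons overlap those of Sphk2, a sphingosine kinase gene on the opposite strand, over 539 of 2993 bases, 18.0%. Sphk2 went from 803, 655 and 718 normalized counts to 598, 585 and 623, the other way from Dbp (log2 fold change -0.27, SE 0.087, adjusted p = 0.0112, edgeR). Its fall was lost with total counts (-0.057, adjusted p = 0.559, edgeR) and without the first DMSO library (-0.20, adjusted p = 0.0621, edgeR).

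Clock (ENSMUSG00000029238), which encodes the partner of BMAL1, had 2199, 2406 and 2224 normalized counts in DMSO and 5737, 5544 and 5566 after P3FI-90. Both groups were tight, and the difference was 2.47-fold (log2 fold change 1.30, SE 0.044). Npas2 (ENSMUSG00000026077), which can stand in for Clock, was at 0 counts in all 3 libraries given DMSO and at 6, 0 and 0 counts after P3FI-90. It did not pass the filter on low counts and was not called when that filter was left out, and without the first P3FI-90 library it was at 0 throughout. At this depth Npas2 was not detectable in 5 of the 6 libraries, where a count of 0 allows up to 3 counts per library.

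Levels were compared between genes as CPM, scaled by TMM, per kilobase of exon, with exon lengths from GENCODE M21. In DMSO the order was Nr1d2 (14.5), Nr1d1 (6.32), Clock (4.73), Cry1 (4.62), Per1 (3.91), Cry2 (2.62), Per3 (1.66), Dbp (1.21), Per2 (1.2) and Npas2 (0). The libraries of Nr1d1 overlapped those of Clock, those of Clock overlapped those of Cry1, and those of Dbp overlapped those of Per2, so these neighbours did not differ beyond their spread. After P3FI-90 the order was Nr1d1 (58.8), Nr1d2 (43.9), Clock (11.7), Cry1 (10.5), Per1 (9.85), Cry2 (4.08), Dbp (3.67), Per2 (2.91), Per3 (2.43) and Npas2. Here the neighbours Cry1 and Per1 overlapped, as did Cry2 and Dbp. Per kilobase, Nr1d1 thus passed Nr1d2, and Dbp and Per2 both passed Per3. These changes of order rest on the exon lengths used, which count the exons of all annotated transcripts of a gene. In normalized counts, not divided by length, the means after P3FI-90 were 6348 for Nr1d1 and 8324 for Nr1d2. They were 385 for Dbp, 597 for Per2 and 820 for Per3, so the changes of order just named were absent there. Other orders did change in normalized counts. For example, Nr1d1 went from below Clock in DMSO (means of 682 and 2276) to above it after P3FI-90 (6348 and 5616). Cry1 went from below Cry2 in DMSO (541 and 580) to above it after P3FI-90 (1234 and 904). Among the 12263 genes tested that had a length, the level of Nr1d1 was above 45.7% in DMSO and above 94.5% after P3FI-90, and that of Nr1d2 above 67.8% and 91.6%. Per2 stayed in the lower part of the range, above 18.1% and 28.0% of genes.

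Ratios within a library do not depend on how libraries are scaled, and they show how unequal the differences were within each family. All ratios were taken per kilobase of exon. The ratio of Nr1d1 to Nr1d2 was 0.510, 0.341 and 0.458 in DMSO and 1.29, 1.47 and 1.27 after P3FI-90. On that scale, REV-ERBα transcripts went from the lesser to the greater part. The ratio of Per2 to Per3 was 0.700, 0.704 and 0.762 in DMSO and 1.16, 1.21 and 1.22 after P3FI-90, and that of Per1 to Per3 went from a mean of 2.37 ± 0.362 (SD, n = 3) to 4.06 ± 0.440. For Per1 to Per2 the groups overlapped, with 3.28 ± 0.540 in DMSO and 3.40 ± 0.372 after P3FI-90. Cry1 to Cry2 went from 1.77 ± 0.0673 to 2.59 ± 0.182, without overlap. These ratios come from the comparison for which the genes were chosen and were not tested.

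**Figure D3:**
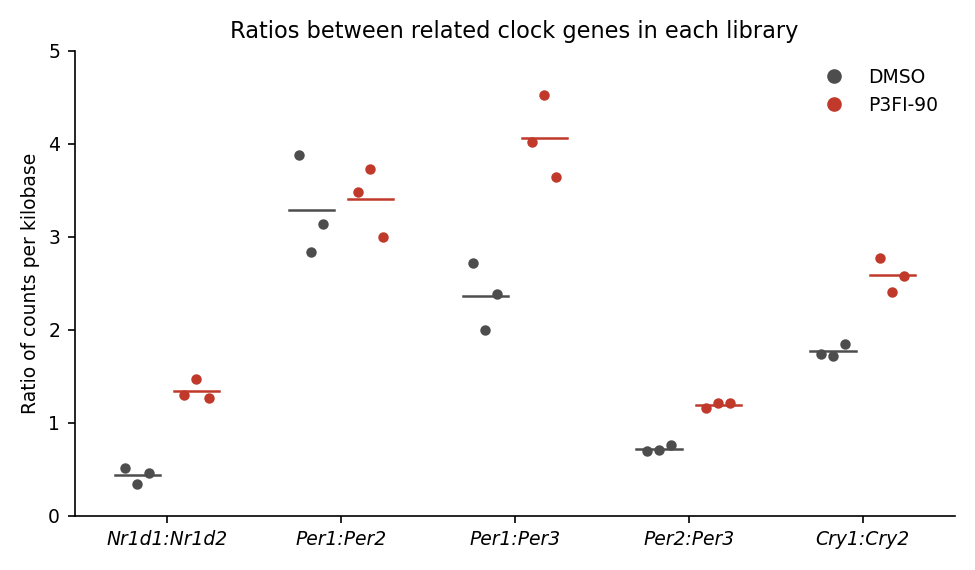
Ratio of counts per kilobase (vertical axis) between related clock genes in each of the 3 DMSO and 3 P3FI-90 libraries, with a bar at each group's mean. The groups separate for Nr1d1:Nr1d2, Per1:Per3, Per2:Per3 and Cry1:Cry2, and overlap for Per1:Per2.

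A further 47 genes of the pathway, listed by role, were taken from the same fit over all genes, with adjusted p-values from edgeR's quasi-likelihood test over the 12288 genes. Of these, 44 were tested, 27 were higher, 11 lower and 6 neither, with a median log2 fold change of 0.39. With total counts in place of TMM it was 30 higher and 8 lower. The lists below give how many of each role moved, and no share was tested against the 39.9% of all genes that were higher. These lists too were chosen with earlier results of these data known, so their adjusted p-values are given as description only.

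The partners of CLOCK and the ROR receptors, which activate Bmal1 where REV-ERB represses it, went both ways, with a median log2 fold change of -0.47 over the 2 tested, against 0.013 over all genes. Bmal1 (ENSMUSG00000055116), the obligate partner of CLOCK, had 1089, 1013 and 1201 normalized counts in DMSO and 1456, 1574 and 1411 after P3FI-90. It rose without overlap (log2 fold change 0.43, SE 0.070, adjusted p = 6.97e-05, edgeR). This is a smaller value than that of any of the 9 clock genes above, a difference that was not tested. Bmal2, its paralog, had 663, 665 and 762 normalized counts in DMSO and 256, 298 and 252 after P3FI-90, and fell by 1.37 on the log2 scale (SE 0.10, adjusted p = 2.18e-08, edgeR). Rora was below the filter, with 4, 0 and 0 counts in DMSO and 8, 6 and 14 after P3FI-90, and Rorb was at 0 in every library. Of the 2 genes tested in this list, 1 was thus higher and 1 lower.

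The other D-box factors are Tef and Hlf, activators of the same family as DBP, and Nfil3, the repressor that competes with them. Of the 3, 2 were higher and 1 neither, with a median log2 fold change of 0.82. Tef went from 1418 ± 115 (SD, n = 3) to 2809 ± 77.6 normalized counts (log2 fold change 0.98, SE 0.060, adjusted p = 1.91e-09, edgeR). Nfil3 went from 1042 ± 101 to 1847 ± 19.6 (log2 fold change 0.82, SE 0.066, adjusted p = 3.91e-08, edgeR), so the activators Dbp and Tef and their repressor were all higher. Hlf had 22.4 ± 4.06 and 31.5 ± 8.91 normalized counts, and its groups overlapped (log2 fold change 0.50, SE 0.39, adjusted p = 0.258, edgeR).

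The genes that repress at E-boxes outside the PER and CRY complex were all 3 higher, with a median log2 fold change of 1.19. Ciart, the gene of CHRONO, which binds BMAL1, went from 256 ± 19.2 to 986 ± 12.9 normalized counts, the largest difference among the further genes (log2 fold change 1.95, SE 0.086, adjusted p = 5.77e-11, edgeR). Bhlhe41, the gene of DEC2, went from 707 ± 39.2 to 1611 ± 104 (log2 fold change 1.19, SE 0.069, adjusted p = 1.06e-09, edgeR). Bhlhe40, the gene of DEC1, went from 3608 ± 146 to 4919 ± 38.5 (log2 fold change 0.45, SE 0.039, adjusted p = 1.02e-07, edgeR). In all 3 genes the P3FI-90 libraries lay above the DMSO libraries.

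Among 11 genes for kinases and for the turnover of PER and CRY proteins, 6 were higher, 2 lower and 3 neither, with a median log2 fold change of 0.15. The largest differences were in Gsk3b, a kinase of several clock proteins (log2 fold change 0.81, SE 0.047, adjusted p = 1.10e-09, edgeR), in Sirt1, a deacetylase (0.55, SE 0.050, adjusted p = 1.42e-07), and in Csnk2b, a casein kinase 2 subunit (0.47, SE 0.056, adjusted p = 2.87e-06). The casein kinase 1 genes, whose products mark PER for degradation, went apart. Csnk1d was higher (log2 fold change 0.22, SE 0.035, adjusted p = 4.39e-05, edgeR) and Csnk1e lower (log2 fold change -0.25, SE 0.046, adjusted p = 2.32e-04, edgeR). The ubiquitin ligase genes Btrc and Fbxw11, which act on PER, had log2 fold changes of -0.34 and 0.32. With total counts in place of TMM the falls of Csnk1e (-0.031, adjusted p = 0.544, edgeR) and Btrc (-0.13, adjusted p = 0.126, edgeR) were lost. The call of Csnk2a1 (log2 fold change 0.092, adjusted p = 0.0417, edgeR) was lost in 7 of 15 alternatives, with adjusted p up to 0.220, among them those without the first or the third DMSO library and without the first or the third P3FI-90 library (adjusted p 0.125 to 0.183). Fbxl21, Usp2 and Timeless were not called (adjusted p = 0.419, 0.667 and 0.834, edgeR). Genes in this paragraph other than the first 3 were named after their values were seen.

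Of 10 cofactor genes, 6 were higher and 4 lower, and the median of their log2 fold changes was 0.62. The histone acetyltransferase gene Crebbp (log2 fold change 1.57, SE 0.080, adjusted p = 2.80e-10, edgeR) and the histone methyltransferase gene Kmt2a (1.29, SE 0.039, adjusted p = 1.30e-12), both coactivators of CLOCK and BMAL1, were among the higher. Sfpq, an RNA-binding protein found with PER, fell from 14598 ± 156 to 6012 ± 31.7 normalized counts, or by 1.28 on the log2 scale (SE 0.031, adjusted p = 1.63e-13, edgeR). The other lower genes, named after their values were seen, were its partner Nono (log2 fold change -0.90), Hdac3, the deacetylase through which REV-ERB represses (-0.42), and Wdr5, a subunit of histone methyltransferase complexes (-0.22). The call of Wdr5 was lost with total counts (adjusted p = 0.910, edgeR). Higher as well, and likewise named after their values were seen, were Kdm5a (1.09), Ep300 (0.99), Kat2b (0.85) and Ncor1 (0.39).

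Of 6 genes known as clock outputs, 5 were tested, with 3 higher, 1 lower and 1 neither and a median log2 fold change of 0.30. Cdkn1a, the gene of the cell cycle inhibitor p21, was higher (log2 fold change 0.83, SE 0.081, adjusted p = 2.98e-07, edgeR), as was Noct, the gene of the rhythmic protein nocturnin (0.57, SE 0.046, adjusted p = 4.35e-08, edgeR). Wee1, an E-box target whose kinase holds back mitosis, went the other way from the Per and Nr1d genes, from 1912 ± 51.1 to 1155 ± 58.8 normalized counts (log2 fold change -0.73, SE 0.055, adjusted p = 2.20e-08, edgeR). Nampt, another E-box target and the enzyme of NAD salvage, had 5465 ± 377 and 5657 ± 373 normalized counts and was not called (log2 fold change 0.050, SE 0.054, adjusted p = 0.405, edgeR). Nampt was named after its values were seen.

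Of 10 genes of the input pathways that reset the clock, 6 were higher, 3 lower and 1 neither, with a median log2 fold change of 0.38. Nr3c1, the glucocorticoid receptor, went from 2457 ± 185 to 5585 ± 137 normalized counts (log2 fold change 1.19, SE 0.050, adjusted p = 3.97e-11, edgeR). Its well known target genes went both ways. Sgk1 (log2 fold change -1.24, SE 0.044, adjusted p = 6.93e-12, edgeR) and Fkbp5 (-0.90, SE 0.041, adjusted p = 7.01e-11) were lower. Tsc22d3, named after its values were seen like Crtc3 and Crem, was higher (0.85, SE 0.10, adjusted p = 2.45e-06, edgeR), as Per1, itself a glucocorticoid target, was. The other lower gene was the CREB coactivator Crtc3 (-0.58), and Crem was not called (0.15, SE 0.15, adjusted p = 0.360, edgeR). The remaining higher genes, also named after their values were seen, were Creb1 (0.39), Crtc1 (0.79), Crtc2 (0.37) and Sik1 (0.55).

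**Figure D4:**
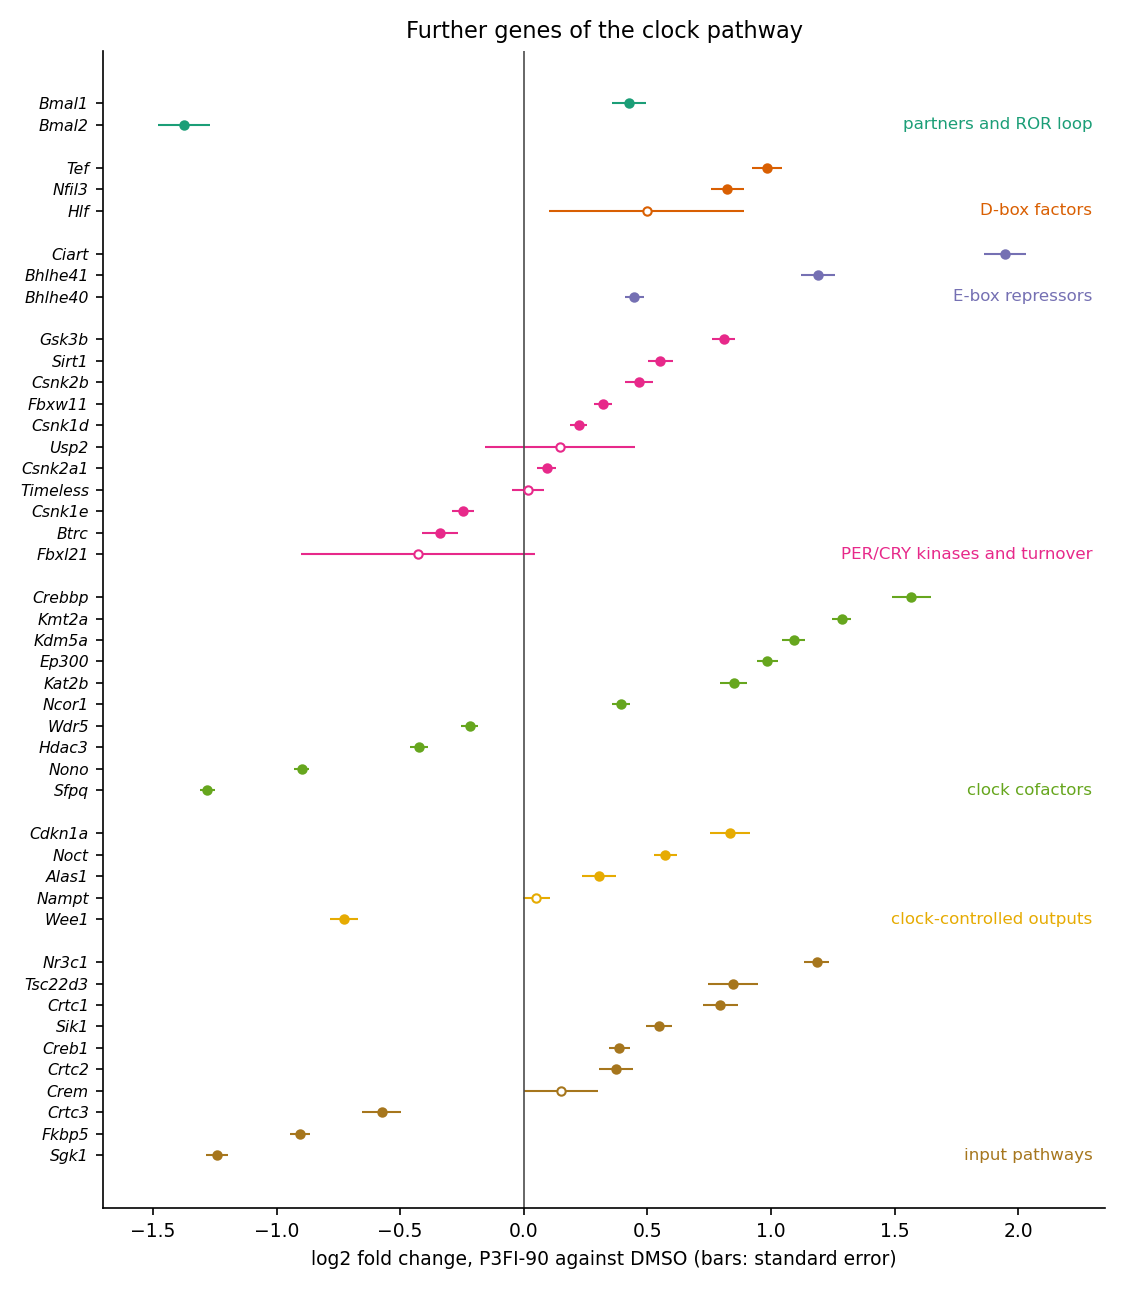
Log2 fold change of P3FI-90 against DMSO (horizontal axis, bars for the standard error) of the 44 further clock genes tested, grouped by role, with filled points for genes called and open points for the others. The E-box repressors all lie to the right, the partners and ROR genes on both sides, from -1.37 for Bmal2 to 0.43 for Bmal1; with total counts in place of TMM the calls of Csnk1e, Btrc and Wdr5 are lost.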

How the data were processed

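Whole, unnormalized read counts per gene were deposited by the authors for 6 libraries of bulk RNA. The submitters' processing notes name CASAVA, HISAT2 and StringTie and the build GRCm39, without roles or versions, and the counting tool, annotation and strandedness are not given in the sources used here. A further 285 rows of assembled transcripts, 0.483% to 0.556% of the counts of a library, were left out. Genes were filtered with filterByExpr, scaled by TMM and tested in edgeR 4.0.16 (R 4.3.3) with the quasi-likelihood test, all 6 libraries and no covariate, and p-values were adjusted by Benjamini-Hochberg over 12288 genes. The SE of a log2 fold change is its size divided by the square root of the F statistic. For normalized counts, each library was brought to the mean of the 6 effective library sizes. Exon lengths, exon overlaps and 50-base windows came from GENCODE M21 (GRCm38), joined by gene identifier. An exact permutation test (two-sided) over 6 libraries cannot go below p = 0.1, so none was run.

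The members and lists were chosen with earlier results of these data known. The rule for names takes all members, the lists of partners, D-box factors and E-box repressors, and from each other list the 3 called genes with the largest absolute log2 fold change. The paper names limma, so limma 3.58.1, as voom and on log2(CPM + 1), was an alternative, beside DESeq2 1.42.0, other scalings and filters, the replicate block and each library left out. The tests were checked on simulated counts. Protein sequences were not used here, and some genes of these lists are not reported here. Counting limits cover counting error only.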

Additional observations from a re-analysis of the deposited data

How the results depend on the processing

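The 9 clock genes that passed the filter were called higher and 0 lower in edgeR and in each of 15 alternatives (with no filter Npas2 was tested too and not called), DESeq2 and both forms of limma included, and their median log2 fold change ranged from 1.265, with upper-quartile factors, to 1.52, with total counts. With each library left out in turn, Nr1d1 ranged from 3.07 to 3.32, Dbp from 1.53 to 1.73 and Per3 from 0.51 to 0.60. Libraries with equal replicate numbers shared little deviation from their group means, with correlations of -0.0214, 0.015 and 0.00491. Whether they were paired by design is not given in the sources used here. With the replicate block 4802 genes were higher and 4722 lower, and 26 of the further clock genes were higher and 11 lower. With total counts 0 kinase and turnover genes were lower in place of 2, and Timeless, Nampt and Crem became called higher. Over all alternatives 26 to 30 further genes were higher and 8 to 11 lower. Changes of direction were seen only in further genes that were not called. With upper-quartile factors, Timeless was at -0.0231 on the log2 scale. Without 1 library, Timeless ranged from -0.0687 to 0.0619, with -0.00049 without the third P3FI-90 library, Usp2 from -0.161 to 0.445 and Nampt from -6.72e-05 to 0.0998. The cause was not tested. Counts of Npas2, Rora, Rorb and Ppara were too low for a test after the filter.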
